A study of Homo sapiens with 6 samples.

Results

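The genes described here are 45 protein-coding genes of DNA replication, chosen by symbol: the subunits of the MCM2-7 helicase and of the origin recognition complex, the licensing factors with geminin, the factors that activate the helicase, the sliding clamp and its loader, the replicative polymerases and primase, the enzymes of strand maturation with the single-strand binding protein RPA, the enzymes of deoxynucleotide supply and the transcription factor E2F1. Each symbol matched exactly 1 Ensembl identifier of the 60671 genes in the table, and 45 of the 45 passed the filter on low counts, which left 15663 genes for testing. No measured value entered the rule of choice, though earlier results of these data were known when the genes were chosen.

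The study depleted the forkhead transcription factor FOXL2 by RNA interference and measured polyadenylated RNA by sequencing single reads from a stranded library. The cells were KGN, an established human line derived from a granulosa cell tumour of the ovary, edited by CRISPR to carry wild-type FOXL2 on both alleles (FOXL2 WT/WT). All 6 libraries came from this edited line. The 3 control siRNA libraries received 30 pmol of a scrambled siRNA and the 3 FOXL2 siRNA libraries 30 pmol of a pool of 3 siRNAs, both with Lipofectamine RNAiMax, and RNA was taken 30 h later. Every pool lacked a different 1 of 4 siRNAs while 1 of the 4 was in all of them, so each FOXL2 siRNA library repeats the depletion with its own siRNA mixture. Nothing in the labels says that the libraries came from separate cultures, and the p-values then measure only the spread between these samples.

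Before a cell copies its DNA, the origin recognition complex, CDC6 and CDT1 load the ring of MCM2 to MCM7 onto chromatin, and geminin holds CDT1 inactive once the copying has begun. CDC45 and the GINS complex then turn the loaded ring into an active helicase, DNA polymerase alpha with primase makes the primers, and polymerases delta and epsilon extend them with the help of PCNA. Many of these genes are transcribed together at the start of S phase by E2F factors, in granulosa cells as in other dividing cells.

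The libraries held from 23843192 to 28791954 counts assigned to genes, and library 2 of the FOXL2 siRNA group stood apart from the other 5 on the first principal component. FOXL2 itself was measured at 9.88, 9.71 and 10.8 CPM (counts per 1000000, scaled by TMM) in the control libraries and at 2.64, 3.31 and 2.36 CPM in the FOXL2 siRNA libraries. It fell by 1.88 on the log2 scale (SE 0.14, edgeR adjusted p = 0.00267), which matches the labels. Of 11 granulosa markers, 6 reached 1 TPM (transcripts per 1000000, a unit that accounts for transcript length), while AMHR2, FSHR, INHA, CYP19A1 and GATA4 were at or near 0. Of 9 markers of immune, endothelial and Sertoli cells, 3 reached 1 TPM. The summed level of the 9 was 80.2 to 92.2 TPM in the control libraries and 58.5 to 77.4 TPM after FOXL2 siRNA, with CD68 as the main contributor, and its part in the results was not tested. In such bulk samples, fewer cells in S phase and less RNA per cell cannot be told apart.

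All 45 replication genes were well expressed, with 288 to 7181 counts per gene and library. Their mean TPM over the 6 libraries spanned a 33.0-fold range. The most abundant mRNA was POLD2, a small accessory subunit of DNA polymerase delta, at 289 TPM, and the least abundant was POLA1, the catalytic subunit of DNA polymerase alpha, at 8.75 TPM. Below POLD2 came RRM2 at 273 TPM, TYMS at 238 TPM and PCNA at 214 TPM, and the first 2 of these make deoxynucleotides or their precursors. Of the 44 neighbouring pairs in the order of mean TPM, only 4 had ranges over the 6 libraries that did not overlap. They were PCNA above MCM4, MCM4 above MCM7, MCM5 above FEN1 and MCM3 above GMNN. Such ranges do not compare genes library by library, where RRM2 exceeded TYMS and TYMS exceeded PCNA in all 6.

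Subunits that act in one complex were unequal in mRNA. POLD2 exceeded POLD1, the catalytic subunit of polymerase delta, by a ratio of 9.70 ± 0.42 in TPM in the control libraries and 9.50 ± 0.91 after FOXL2 siRNA (SD, n = 3). Within the helicase ring, whose 6 proteins assemble in equal number, the mean level ran from 181 TPM for MCM4 to 51.3 TPM for MCM6. The ratio of MCM4 to MCM6 was 3.27 ± 0.19 in the control libraries and 3.85 ± 0.20 after FOXL2 siRNA (SD, n = 3), a difference that was not tested. The origin recognition subunits had means of 11.4 TPM for ORC1 to 36.5 TPM for ORC6, which was the median of the 45 genes.

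Between the groups, the differences were small. In the quasi-likelihood test of edgeR, adjusted by Benjamini-Hochberg over all 15663 genes, 0 of the 45 passed an adjusted p of 0.05, and the smallest adjusted p was 0.117, for MCM3; of all genes tested, 0.255% passed. At an unadjusted p below 0.05, edgeR gave 14 of the 45, of which 10 were lower (6.88% of all genes) and 4 higher (6.62% of all genes) after FOXL2 siRNA. DESeq2 called 4 of the 45 (2.14% of all genes), namely MCM3, POLA1 and TYMS as lower and GINS1 as higher, while limma-voom called 0. With offsets for the effective transcript length, DESeq2 called 3 of the 45 (2.29% of all genes), namely MCM2 and MCM3 as lower and GINS1 as higher. Without library 2 of the FOXL2 siRNA group, edgeR called 3 of the 45 (3.61% of all genes), MCM3, ORC6 and POLA1, each lower.

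The median log2 fold change of the 45 genes was -0.07 against 0.0057 for all genes tested, and 62.2% of the 45 had a negative fold change against 48.6% of all genes. The median size of the change was 0.12 on the log2 scale for the 45 and 0.12 for all genes. For 16 of the 45 all 3 FOXL2 siRNA libraries lay below all 3 control libraries in CPM (10.6% of all genes), and for 4 they lay above them (9.97% of all genes). In TPM, 7 of the 45 were lower without overlap (9.07% of all genes) and 4 higher (9.3% of all genes), 11 in all against 20 in CPM. The 7 were MCM2, MCM3, MCM7, ORC1, MCM10, POLA1 and TYMS, and the 4 were ORC4, GMNN, GINS1 and GINS4.

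**Figure D1:**
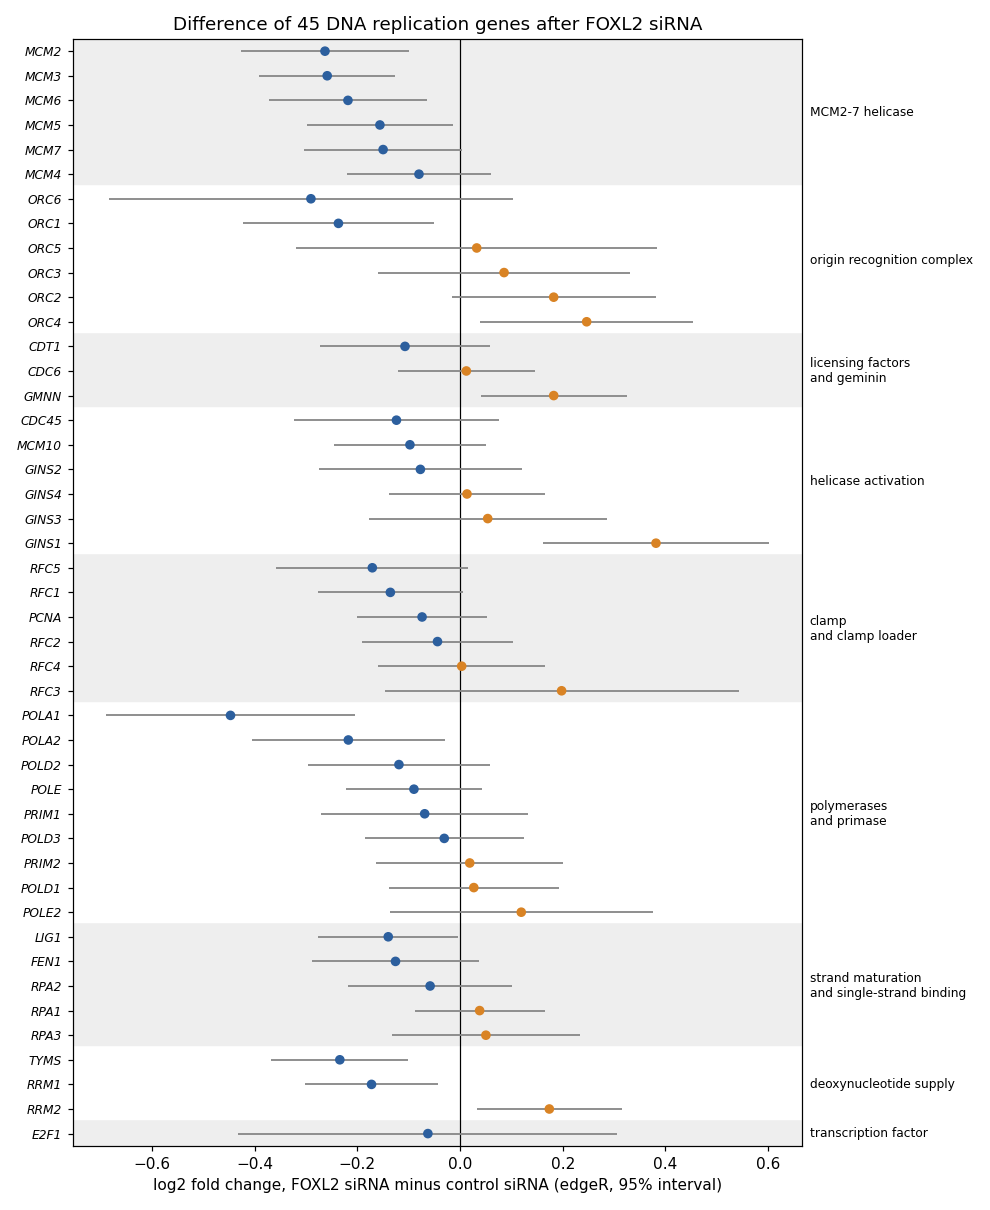
Log2 fold change of each of the 45 genes, FOXL2 siRNA minus control siRNA, from edgeR (x axis), with its 95% interval (grey line), by role. The estimates of the 6 MCM2-7 genes are all left of 0, but the intervals of MCM4 and MCM7 cross 0. POLA1 is the lowest at -0.45 and GINS1 the highest at 0.38.

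The 6 genes of the MCM2-7 ring, the motor of the replicative helicase, were each fitted lower after FOXL2 siRNA, with a median of -0.19 on the log2 scale. In the edgeR test 0 of the 6 passed, while 4 were lower at an unadjusted p below 0.05 (6.88% of all genes). MCM3 (ENSG00000112118, GRCh38 chr6:52264009-52284881, minus strand) was at 201, 195 and 185 CPM in the control libraries and at 159, 161 and 166 CPM in the FOXL2 siRNA libraries. The 2 groups did not overlap, and the replicates of each lay close together. The log2 fold change of MCM3 was -0.26 (SE 0.06), with an adjusted p of 0.117 by edgeR, 0.0215 by DESeq2 and 0.122 by limma-voom.

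MCM2 (ENSG00000073111, chr3:127598223-127622436, plus strand) was at 155, 149 and 150 CPM in the control libraries and at 114, 131 and 134 CPM after FOXL2 siRNA. All FOXL2 siRNA libraries were below the controls, with replicate 1 the lowest. Its log2 fold change was -0.26 (SE 0.07, edgeR adjusted p = 0.179). MCM6 was at 132, 131 and 119 CPM against 103, 112 and 114 CPM, again without overlap, and its log2 fold change was -0.22 (SE 0.07, edgeR adjusted p = 0.233). For MCM5 the control libraries were at 181, 172 and 170 CPM and the FOXL2 siRNA libraries at 149, 156 and 165 CPM. These groups too were separate, by a narrow margin, and the log2 fold change was -0.16 (SE 0.06, edgeR adjusted p = 0.335).

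The remaining subunits overlapped between the groups in CPM. MCM7 was at 241, 233 and 247 CPM in the control libraries and at 215, 201 and 234 CPM after FOXL2 siRNA (log2 fold change -0.15, SE 0.07, edgeR adjusted p = 0.380). MCM4 was at 277, 268 and 247 CPM against 245, 255 and 249 CPM (log2 fold change -0.08, SE 0.06, edgeR adjusted p = 0.607). The sign for MCM4 depended on the transcript length, since with effective-length offsets in edgeR its log2 fold change was 0.03, so 5 of the 6 were then negative. That of MCM5 was -0.08 with these offsets. In TPM the groups were separate for MCM7 and overlapped for MCM5 and MCM6.

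**Figure D2:**
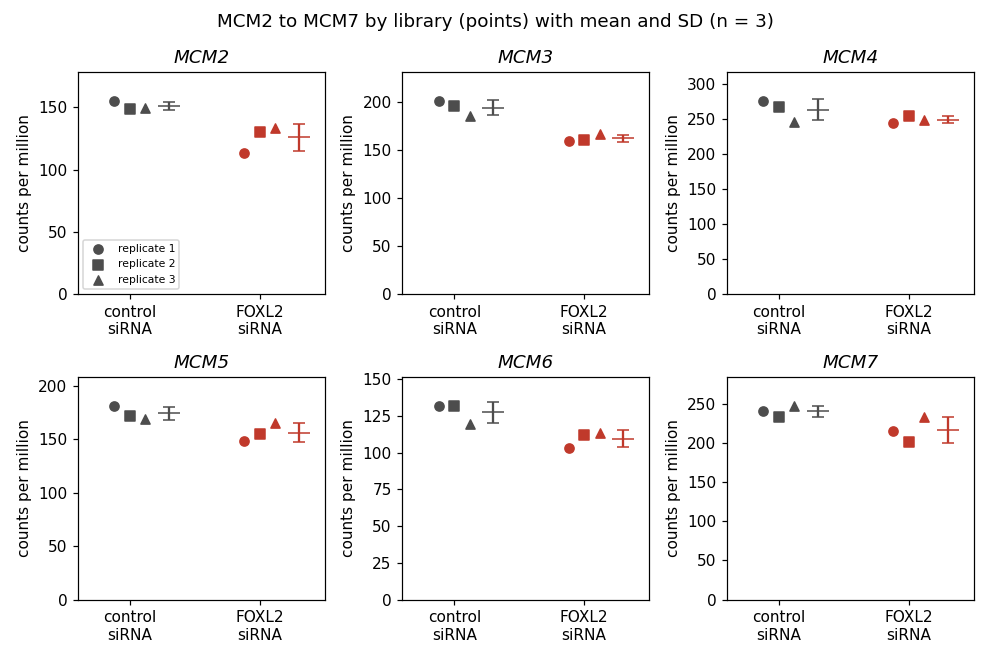
Level in CPM (y axis, from 0) of MCM2 to MCM7 in each library (points, with 1 symbol per replicate number) and the mean with its SD (n = 3) for control siRNA (grey) and FOXL2 siRNA (red). The groups are separate for MCM2, MCM3, MCM5 and MCM6 and overlap for MCM4 and MCM7.

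The 6 genes of the origin recognition complex, which marks replication origins, went in both directions, with 2 fitted lower and 4 higher and a median log2 fold change of 0.06. ORC1, the largest subunit and an ATPase, was at 23.2, 26.2 and 23.7 CPM in the control libraries and at 19.6, 21.2 and 21.1 CPM after FOXL2 siRNA. The groups were separate, and the log2 fold change was -0.24 (SE 0.08, edgeR adjusted p = 0.277). ORC4, another subunit of the complex, was at 16.6, 15.5 and 15.4 CPM against 18.1, 20.7 and 17.7 CPM. Here the FOXL2 siRNA libraries were the higher ones, with a log2 fold change of 0.25 (SE 0.09, edgeR adjusted p = 0.309).

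ORC6 was at 38.9, 37.8 and 36.1 CPM in the control libraries and at 22.9, 40.8 and 28.8 CPM in the FOXL2 siRNA libraries. Replicate 2 was above every control and replicates 1 and 3 were below them. The log2 fold change was -0.29 (SE 0.17, edgeR adjusted p = 0.499), -0.54 without replicate 2 (edgeR adjusted p = 0.0201) and -0.12 without replicate 1 (edgeR adjusted p = 0.773). ORC2, ORC3 and ORC5 had log2 fold changes of 0.03 to 0.18 and overlapping groups (edgeR adjusted p of 0.401 to 0.953).

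Of the licensing factors, CDC6, an ATPase that helps to load the ring, had nearly the same level throughout, 66.3 to 67.5 CPM in the control libraries and 66.2 to 69.6 CPM after FOXL2 siRNA. Its coefficient of variation over the 6 libraries, 2.0%, was the lowest of the 45 genes. CDT1, its partner in loading, had a log2 fold change of -0.11 (SE 0.07, edgeR adjusted p = 0.550). GMNN, which encodes geminin, the inhibitor of CDT1, was at 46.1, 49.1 and 46.0 CPM in the control libraries and at 53.1, 52.9 and 54.3 CPM after FOXL2 siRNA. The FOXL2 siRNA libraries were all above the controls (log2 fold change 0.18, SE 0.06, edgeR adjusted p = 0.275).

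Among the 6 genes of helicase activation, 3 were fitted lower and 3 higher. GINS1 (ENSG00000101003, chr20:25407727-25452628, plus strand), a subunit of the GINS complex, was at 32.6, 33.3 and 28.2 CPM in the control libraries and at 41.6, 44.6 and 36.5 CPM after FOXL2 siRNA. All FOXL2 siRNA libraries were above all controls, and the log2 fold change of 0.38 was the highest of the 45 (SE 0.10). The adjusted p was 0.160 by edgeR, 0.0353 by DESeq2 and 0.172 by limma-voom. GINS2, GINS3 and GINS4 had log2 fold changes of -0.08, 0.05 and 0.014 and overlapping groups in CPM. With effective-length offsets in edgeR these were -0.09, 0.12 and 0.19, and GINS4 was higher without overlap in TPM. The difference between GINS1 and its partners was not tested. CDC45 (-0.12) and MCM10 (-0.10), which join the ring at firing, had edgeR adjusted p of 0.573 and 0.547.

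For the clamp and its loader, 4 of 6 genes were fitted lower and 0 were at an unadjusted p below 0.05 by edgeR. PCNA, the ring that tethers polymerases to DNA, was at 168, 162 and 158.1 CPM in the control libraries and at 151, 157.6 and 155 CPM after FOXL2 siRNA, a log2 fold change of -0.07 (SE 0.06, edgeR adjusted p = 0.601). RFC1, the large subunit of the clamp loader, was at 86.2, 87.3 and 83.0 CPM against 73.9, 78.6 and 80.9 CPM (log2 fold change -0.14, SE 0.06, edgeR adjusted p = 0.385). PCNA and RFC1 did not overlap between the groups in CPM but did in TPM, and with effective-length offsets in edgeR the log2 fold change of RFC1 was -0.032. RFC3, a small subunit, was at 32.0, 29.5 and 26.2 CPM in the control libraries and at 30.8, 42.4 and 27.6 CPM after FOXL2 siRNA. Its log2 fold change of 0.20 (SE 0.15, edgeR adjusted p = 0.605) rested on replicate 2, and was -0.0053 without it.

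The lowest fold change of the 45 was that of POLA1, which starts each new strand with primase. POLA1 (ENSG00000101868, chrX:24693919-24996986, plus strand) was at 32.5, 33.6 and 34.1 CPM in the control libraries and at 20.8, 28.3 and 24.5 CPM after FOXL2 siRNA. The controls lay close together, and every FOXL2 siRNA library was below them, with a wider spread. The log2 fold change was -0.45 (SE 0.11), which left 73.5% of the control mean, with an adjusted p of 0.135 by edgeR, 0.0179 by DESeq2 and 0.127 by limma-voom.

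POLA2, the accessory subunit of the same polymerase, was at 50.1, 43.5 and 49.03 CPM against 44.2, 38.7 and 39.8 CPM (log2 fold change -0.22, SE 0.08, edgeR adjusted p = 0.315), with overlap between the groups. The primase genes PRIM1 and PRIM2 had log2 fold changes of -0.07 and 0.02. POLD2 was at 238.8, 245 and 247 CPM in the control libraries and at 236, 197 and 238.7 CPM after FOXL2 siRNA. The groups were separate only because replicates 1 and 3 lay just under the lowest control, and the log2 fold change was -0.12 (SE 0.08, edgeR adjusted p = 0.537), or -0.04 without replicate 2. The other 4 polymerase genes, POLD1, POLD3, POLE and POLE2, had log2 fold changes of -0.09 to 0.12.

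Of the 5 genes of strand maturation and single-strand binding, LIG1, the ligase that joins Okazaki fragments, was at 57.9, 56.0 and 58.5 CPM in the control libraries and at 51.0, 52.4 and 53.04 CPM after FOXL2 siRNA. The groups were separate (log2 fold change -0.14, SE 0.06, edgeR adjusted p = 0.361). FEN1, which trims the flaps between these fragments, was at 137, 137 and 144 CPM against 116, 134 and 134 CPM (log2 fold change -0.13, SE 0.07, edgeR adjusted p = 0.477). The 3 RPA genes, which coat single-stranded DNA, had log2 fold changes of -0.06 to 0.05, and their groups overlapped.

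All 3 genes of deoxynucleotide supply were at an unadjusted p below 0.05 by edgeR. TYMS and RRM1 were lower (6.88% of all genes) and RRM2 higher (6.62% of all genes). TYMS (ENSG00000176890, chr18:657604-673578, plus strand), the thymidylate synthase, was at 225, 215 and 208 CPM in the control libraries and at 181, 179 and 191 CPM after FOXL2 siRNA. The groups were separate (log2 fold change -0.23, SE 0.06, adjusted p of 0.159 by edgeR and 0.0497 by DESeq2). The exons of TYMS overlap those of ENOSF1 and TYMSOS on the other strand, and its counts were not whole numbers, so its value is uncertain. Counts were whole in 0 libraries also for MCM7, ORC2, ORC4, GINS3, GINS4, RFC5 and POLA2, and in only 1 library for MCM2 and PRIM1. The values of these genes are uncertain in the same way. The exons of MCM2, MCM7, ORC4, RFC4, RFC5, POLA2, POLD1, PRIM1, FEN1, LIG1, RPA3, RRM1 and RRM2, among others, also overlap another annotated gene. For POLA2, POLD1 and RRM2 that gene is on the same strand, for PRIM1 and FEN1 there is one on each strand, and for the rest it is on the other strand, where reads cannot be told apart only if strand was not used.

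RRM1 and RRM2 encode the large and the small subunit of ribonucleotide reductase. RRM1 was at 250.1, 257 and 242 CPM in the control libraries and at 213, 228 and 224 CPM after FOXL2 siRNA (log2 fold change -0.17, SE 0.06, edgeR adjusted p = 0.259). RRM2 was at 229, 223 and 210.4 CPM against 261, 249 and 238 CPM (log2 fold change 0.17, SE 0.06, edgeR adjusted p = 0.287). The subunits thus differed in opposite directions in CPM, each without overlap, but not per length. In TPM, RRM2 was 274 ± 4.20 in the control libraries and 272 ± 19.4 after FOXL2 siRNA, and RRM1 153 ± 5.11 and 149 ± 16.02 (SD, n = 3). The effective length that RSEM estimated for RRM2 was longer after FOXL2 siRNA by 0.22 on the log2 scale, the largest such shift among the 45, and with effective-length offsets in edgeR the log2 fold change of RRM2 was -0.0084 and that of RRM1 -0.045. Effective lengths differed by more than 0.1 on the log2 scale for 8 of the 45 genes and for 25.2% of all genes.

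E2F1, an activating E2F factor and itself an E2F target, was at 52.3, 52.6 and 50.8 CPM in the control libraries and at 35.2, 60.3 and 53.7 CPM after FOXL2 siRNA. The controls were tight, whereas the FOXL2 siRNA libraries ranged from well below to above them. The log2 fold change was -0.06 (SE 0.16, 95% interval -0.43 to 0.31, edgeR adjusted p = 0.902), and it was 0.13 without replicate 1.

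Several genes varied more within the FOXL2 siRNA group than within the controls. Replicate 1 of the FOXL2 siRNA group was the lowest of its 3 for 24 of the 45 genes, and replicates 2 and 3 were the highest for 19 and 20. Replicate 3 of the control group was the lowest of its 3 for 28 genes. The median deviation of the 45 genes from the control mean on the log2 scale was -0.10, -0.05 and -0.06 in FOXL2 siRNA replicates 1, 2 and 3, against 0.0060, -0.0022 and 0.0053 for all genes. In the control libraries it was 0.03, 0.01 and -0.04 for the 45. The 3 FOXL2 siRNA medians lay below the 3 control medians, the nearest by a small margin.

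The exact permutation test over the 6 libraries cannot go below a two-sided p of 0.1 with 3 libraries against 3, so it could not pass 0.05 for any gene. It gave that smallest value for the 20 genes whose groups did not overlap.

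Other genes of the pathway were read in lists of the same kind. Of 30 further replication genes, 23 were fitted lower and 7 higher (median log2 fold change -0.06), and 0 passed the adjusted edgeR test. At an unadjusted p below 0.05, 3 were lower (6.88% of all genes) and 1 higher (6.62% of all genes). The lowest, POLE3, a histone-fold subunit of DNA polymerase epsilon, was at 100.6, 106 and 103 CPM in the control libraries and at 98.6, 75.5 and 75.4 CPM after FOXL2 siRNA (log2 fold change -0.31, SE 0.10, edgeR adjusted p = 0.255). The highest, DBF4, the activating subunit of the CDC7 kinase, had a log2 fold change of 0.29 (SE 0.11, edgeR adjusted p = 0.296). In 10 further genes of deoxynucleotide supply, 0 were at an unadjusted p below 0.05 (median log2 fold change 0.00067), and the extremes were SAMHD1 at -0.19 and DCK at 0.17.

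Among 19 genes of the E2F and RB families and S-phase cyclins, 7 were fitted lower and 12 higher (median log2 fold change 0.05). At an unadjusted p below 0.05 by edgeR there were 3, all higher (6.62% of all genes). The median of this list was -0.03 without FOXL2 siRNA replicate 2 and 0.0020 with effective-length offsets in edgeR. In the edgeR fit the 2 cyclin E genes lay at the ends of this list, although E2F6 (-0.304) was nearly as low as CCNE1 (-0.305). With limma-voom E2F6 was the lower of these, at -0.326 against -0.323. CCNE2 was at 16.7, 15.2 and 14.8 CPM in the control libraries and at 22.8, 21.5 and 19.4 CPM after FOXL2 siRNA (log2 fold change 0.45, SE 0.09, edgeR adjusted p = 0.108). CCNE1 was at 11.5, 12.04 and 10.7 CPM against 7.28, 10.8 and 9.71 CPM (log2 fold change -0.30, SE 0.14, edgeR adjusted p = 0.392). The S-phase checkpoint list had 11 genes tested of 12, 3 lower and 8 higher with a median of 0.09, and held the 1 gene of these lists that edgeR called, WEE1 (log2 fold change 0.62). Its median was 0.03 without FOXL2 siRNA replicate 2 and 0.05 with effective-length offsets in edgeR, and its lowest gene was ATRIP at -0.10. The 23 mitosis genes had a median of -0.02. At an unadjusted p below 0.05 by edgeR, 3 of them were lower (6.88% of all genes) and 0 higher (6.62% of all genes). For 5 of the 23 all FOXL2 siRNA libraries lay below all controls in CPM (10.6% of all genes), and DESeq2 called 2 (2.14% of all genes). The 10 p53 targets had a median of -0.0071. At an unadjusted p below 0.05 by edgeR, 2 of them were lower (6.88% of all genes) and 2 higher (6.62% of all genes). The mitosis genes ran from KIF20A at -0.27 to MAD2L1 at 0.23, which was 0.017 with effective-length offsets in edgeR, and the p53 targets from BBC3 at -0.26 to MDM2 at 0.39.

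The promoters of the replication genes were read from RefSeq sequence of GRCh38.p14, in windows from 250 bases before to 50 bases after each start. The table gave 49 windows for 39 of the 45 genes, with MCM4, MCM5, GINS4, POLD3, RPA2 and RPA3 not included. An E2F word (TTTCCCGC, TTTCGCGC, TTTGCCGC or TTTGGCGC on either strand) was found in 20 of the 49 windows (40.8%), each of a different gene, against 3.31% of all 35116 windows. The NF-Y box CCAAT was found in 59.2% of the 49 windows against 34.6% of all. The cell cycle homology region (TTTGAA or TTCGAA) was in 4.08% against 16.4%. The forkhead core GTAAACA was in 4.08%, both windows of MCM7, against 3.42%. By gene it was in 1 of the 39 (2.56%) against 4.19% of all genes with a window. GTAAACA is a single form of the RTAAAYA consensus that the paper cites for FOXL2, and other forms were not searched. The median GC content was 65.7% in the 49 windows and 58.7% in all, and in 1 window an E2F match overlapped another motif. A match is only an occurrence of these letters in the window.

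MCM6 held 4 E2F words, MCM2, MCM3, MCM7 and E2F1 held 2 each and TYMS held 1. Windows of 28 bases show 1 word of each of these genes, 5′ to 3′ on the strand of the gene, with the E2F word in capitals and 10 bases on each side. In MCM2 and MCM6 the word shown interlocks with another on the other strand.
MCM2, chr3:127598403-127598430, plus strand: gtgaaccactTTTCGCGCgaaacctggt
MCM3, chr6:52284729-52284756, minus strand: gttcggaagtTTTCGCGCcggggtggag
MCM6, chr2:135876512-135876539, minus strand: gtcaggtttgGCGCGAAAtctccagctc
MCM7, chr7:100101389-100101416, minus strand: gggggcgacgTTTCGCGCcaatttcggt
TYMS, chr18:657604-657631, plus strand: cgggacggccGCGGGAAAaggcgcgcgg
E2F1, chr20:33686388-33686415, minus strand: gcaaaaaggaTTTGGCGCgtaaaagtgg
The 20 genes with an E2F word had a median log2 fold change of -0.08, with 13 lower and 7 higher, and the 19 without one had a median of -0.07, with 11 lower and 8 higher. At an unadjusted p below 0.05 by edgeR, 7 of the 20 were lower and 2 higher, against 2 lower and 2 higher of the 19. Of all genes tested, 6.88% were lower and 6.62% higher at that level, and the difference between the 20 and the 19 was not tested.

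Whole promoters are shown for the gene with the smallest p (MCM3), the lowest fold change (POLA1) and the highest (GINS1), which all carried an E2F word. They are given from 250 bases before to 20 bases after the start, 5′ to 3′, with the E2F words in capitals. MCM3 lies on the minus strand (chr6:52284723-52284992), POLA1 on the plus strand (chrX:24693668-24693937) and GINS1 on the plus strand (chr20:25407423-25407692).
MCM3: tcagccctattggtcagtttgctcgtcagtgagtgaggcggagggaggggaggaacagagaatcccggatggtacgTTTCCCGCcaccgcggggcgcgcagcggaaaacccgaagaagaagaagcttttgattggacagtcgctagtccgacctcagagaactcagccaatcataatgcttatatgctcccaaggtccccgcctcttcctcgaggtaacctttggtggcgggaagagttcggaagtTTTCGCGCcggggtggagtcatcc
POLA1: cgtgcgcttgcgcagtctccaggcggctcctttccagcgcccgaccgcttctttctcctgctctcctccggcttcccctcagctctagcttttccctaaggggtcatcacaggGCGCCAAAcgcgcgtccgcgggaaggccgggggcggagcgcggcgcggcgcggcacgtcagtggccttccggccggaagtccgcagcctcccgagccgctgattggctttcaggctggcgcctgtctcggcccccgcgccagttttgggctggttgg
GINS1: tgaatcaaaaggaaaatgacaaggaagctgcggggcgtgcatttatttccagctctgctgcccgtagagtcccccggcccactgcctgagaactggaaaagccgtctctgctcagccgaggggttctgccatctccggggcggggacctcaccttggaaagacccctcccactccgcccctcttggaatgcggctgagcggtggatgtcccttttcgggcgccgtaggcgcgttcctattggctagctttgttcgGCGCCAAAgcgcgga
MCM3 holds 2 E2F words, one of them spanning the start, POLA1 has its word 129 bases before the start, and that of GINS1 begins at base 6 after it.

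Since the study also asked whether FOXL2 binds RNA with repeated G doublets, the longest annotated transcript of each gene (GENCODE v29) was searched for 8 G doublets with gaps of 1 to 4 bases, a simplified form chosen after the expression values were seen. A match was found in 4 of the 45 genes (8.89%; median transcript length 3166 bases) and in 19.3% of the genes tested (median 3324 bases). Those of MCM2, POLD1 and LIG1 lie within the coding sequence of the annotated transcript, and that of RRM2 in an untranslated region. The match of MCM2 (GRCh38, chr3:127604942-127604973, plus strand) is shown because MCM2 is the one of these 4 that DESeq2 with length offsets called as lower, with the G doublets in capitals.
MCM2: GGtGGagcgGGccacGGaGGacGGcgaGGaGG
MCM2 was not called by edgeR (adjusted p = 0.179) or by DESeq2 without offsets (adjusted p = 0.0679). POLD1, with the same kind of match, had a log2 fold change of 0.03 (SE 0.07, edgeR adjusted p = 0.907). LIG1 was at -0.14 (edgeR adjusted p = 0.361) and RRM2 at 0.17 (edgeR adjusted p = 0.287), or -0.0084 with effective-length offsets in edgeR. A link between the match and the fold change was not tested.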

How the data were processed

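Polyadenylated RNA of 6 KGN libraries was sequenced by the authors, who aligned the reads with STAR 2.7.6a and estimated abundance with RSEM 1.3.1 (processing notes of the submitters, which also name Picard 2.8.1, R 3.6.3 and DESeq2 1.26.0). The deposited files hold, per gene, expected counts, TPM, FPKM and effective lengths for each library; FPKM was not used. The notes name the mouse build GRCm38, while the identifiers are human Ensembl genes, so the build and annotation release are uncertain; coordinates here come from GENCODE v29 or RefSeq on GRCh38. Whether counting used strand is not given in the sources used here.

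After rounding of the expected counts, the filter filterByExpr and TMM scaling, genes were tested with edgeR 4.0.16 (glmQLFit, glmQLFTest, two-sided, Benjamini-Hochberg over 15663 genes, threshold 0.05) in R 4.3.3. The SE was the log2 fold change divided by the root of F. DESeq2 1.42.0, limma 3.58.1 (voom, and log2(TPM + 1) for genes with a mean of at least 1 TPM), DESeq2 size factors, 2 other filters on low counts, effective-length offsets, a replicate block and leaving out each library were the alternatives. Counts deviated from whole numbers by more than 0.005 in at least 1 library for 16 of the 45 genes. A count of 0 allows up to 0.104 to 0.126 CPM in these libraries, for counting error only. Only the edgeR test was run on simulated counts, while the other fits and the motif searches were not.

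The genes, lists and tests were chosen with earlier results of these data known. Full statistics were given for members called in the edgeR fit, the 4 lowest and 4 highest fold changes, the smallest p in each role, E2F1 and the extremes in TPM; other members with values were picked after these were seen. From each further list the genes called and the lowest and highest fold change were named, with E2F6 added beside CCNE1.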

Additional observations from a re-analysis of the deposited data

How the results depend on the processing

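The median log2 fold change of the 45 genes (-0.09 to -0.05) and that of MCM2 to MCM7 (-0.23 to -0.16) stayed negative under all 16 alternatives. The number of replication genes called by edgeR, 0, was 4 with DESeq2 and 3 with effective-length offsets in DESeq2, and 0 to 3 when 1 library was left out, with 3 only without FOXL2 siRNA replicate 2. The groups did not overlap for 11 of the 45 in TPM in place of CPM (lower 9.07% and higher 9.3% of all genes). All genes called numbered 335 with DESeq2, 358 with effective-length offsets in DESeq2, 13 with limma on log2(TPM + 1), 64 under a minimum mean of 50 counts, 70 with no filter, and 2 to 579 when 1 library was left out (40 in the edgeR fit). The further lists held 103 genes tested in the edgeR fit. Of these, 5 were called with DESeq2 (2.14% of all genes) and 4 with effective-length offsets in DESeq2 (2.29% of all genes). With effective-length offsets in edgeR 0 were called, and 0 with limma on log2(TPM + 1). Leaving out 1 library gave 0 to 6, with 6 only without FOXL2 siRNA replicate 2 (3.61% of all genes). With 1 library left out, the median was -0.049 to -0.0016 for the mitosis genes, -0.03 to 0.09 for the E2F, RB and cyclin genes (negative without FOXL2 siRNA replicate 2), 0.03 to 0.15 for the checkpoint genes, -0.05 to 0.06 for the p53 targets, -0.03 to 0.03 for the further deoxynucleotide genes and -0.09 to -0.03 for the further replication genes. The log2 fold change reversed for RFC3 (-0.0053 to 0.32 over the libraries left out) and DCK (-0.0063 to 0.29) without FOXL2 siRNA replicate 2, for E2F1 (-0.23 to 0.13) without FOXL2 siRNA replicate 1, and for ATRIP with effective-length offsets in DESeq2 (0.035), in edgeR (0.037) and with limma on log2(TPM + 1) (0.037). WEE1 lost its call in 7 of the 16 alternatives. The cause was not tested.

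Deviations of same-numbered libraries correlated at -0.05, 0.05 and 0.07 over genes, below the minimum of 0.1 used here, so the libraries were not treated as pairs. The sample titles give both groups the same pool numbers, and these correlations cannot show whether same-numbered libraries were handled together. A replicate block in edgeR called 11 genes and 0 of the 45, with 0 of the further lists, and a replicate block in DESeq2 called 175 genes, 0 of the 45 and 3 of the further lists. With 3 libraries a group, the SE of 0.06 to 0.17 on the log2 scale limited which differences of these genes could be detected.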
